A study of Homo sapiens with 6 samples.

Results

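The nuclear-encoded subunits of the mitochondrial respiratory chain and of the ATP synthase were examined in EJ/T24 cells, a line from an invasive bladder carcinoma, after transfection with FOXA1 or with an empty vector. Members were the genes whose symbol is that of an NDUFA, NDUFB, NDUFC, NDUFS or NDUFV subunit of complex I, an SDH subunit of complex II, a UQCR subunit or CYC1 of complex III, a subunit of the COX4 to COX8 families of complex IV, or an ATP5F, ATP5M, ATP5P or ATP5IF gene of complex V. This gave 77 subunit genes of the 19775 genes measured, 32 in complex I, 3 in complex II, 7 in complex III, 17 in complex IV and 18 in complex V. They were read by 151 probe sets that carry a single gene symbol, and 44 of the 77 genes had more than 1 probe set, up to 7. A gene was read by its brightest probe set, the one with the highest mean signal over all arrays. The naming rule also matched 2 pseudogenes, ATP5MC2P1 and COX6A1P1, which were not counted as subunits. NDUFS5, NDUFS8 and UQCRH shared their probe sets with other genes and were not analysed here, some other subunits, 1 of complex II among them, were not analysed here either, and ATP5MF was read only by a dim probe set with signals of 1.6 to 4.4.

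The study asked which transcripts follow FOXA1, a forkhead transcription factor, and profiled whole genome mRNA with 6 HG-U133 Plus 2.0 arrays, 3 for FOXA1 transfected and 3 for control EJ cells. Both groups were the same line, grown in DMEM with 10% FCS and transfected in 90 mm dishes at 70% confluence with 24 ug of DNA and a Lipofectamine reagent. The labels name the empty vector as pUC19, whereas the methods of the study describe FOXA1 in pcDNA3 and an empty vector control. All arrays are of 1 line, how many of the cells took up the plasmid is not stated, and the methods give the transfections as made in triplicate while the labels number the arrays without tying each to a dish, so that the p-values measure only how these arrays vary, which could be technical.

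Values are MAS5 signals, a linear brightness per probe set that the authors scaled to the same trimmed mean (100.01) on every array. Array means were 165 to 177 and array medians 12.4 to 17.5. At the brighter of its 2 probe sets FOXA1 had signals of 38.9, 34.8 and 31.9 in the FOXA1 transfected arrays and 21.8, 24.4 and 21.0 in the control arrays. The groups did not overlap, with a log2 difference of 0.65 (SE 0.23, limma adjusted p = 0.307; p = 0.1 in the two-sided exact permutation test, which can go no lower with 3 arrays a group), and at the dimmer probe set the difference was -0.54 with overlap. Every signed value is FOXA1 transfected minus control as labelled, which is the opposite of the sign in the study's own list of changed genes. Of 13 markers of bladder carcinoma lines, VIM, CD44 and KRT18 had mean signals of 3952, 2274 and 2369, and KRT8, KRT7 and UPK1B had 29.4, 24.2 and 20.1. At or under 14 (4 times the 20th percentile of all signals, 3.5) lay 7, KRT5, KRT19, EPCAM, GATA3 and the uroplakins UPK1A, UPK2 and UPK3A. Of 16 markers of other cell types, 13 lay at or under 14, PTPRC, CD14, VWF and ALB included, while MBP, PECAM1 and HBB had 106.7, 43.0 and 36.1. None of the 16 passed limma, and 1 (6.25%), PECAM1, was higher without overlap at an unadjusted p under 0.05, where 12.5% of all genes were higher without overlap. Of the 13 line markers none passed either, and 2 (15.4%), UPK1B and KRT7, were higher without overlap. The signal at the 3' end over that at the 5' end, a sign of RNA quality, differed without overlap for ACTB, at 2.37 ± 0.228 (SD) in the 3 FOXA1 transfected arrays and 1.73 ± 0.188 (SD) in the 3 control arrays (exact permutation test, p = 0.1), and overlapped for GAPDH, at 0.920 ± 0.0217 and 0.899 ± 0.00926 (exact permutation test, p = 0.3). The part of these ratios in the results was not tested.

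Complexes I and II pass electrons from NADH and succinate to ubiquinone, complex III passes them on to cytochrome c, and complex IV hands them to oxygen. Complexes I, III and IV pump protons across the inner mitochondrial membrane, and complex V, the ATP synthase, uses the returning protons to make ATP. Most subunits are encoded in the nucleus, and all complexes except complex II also hold subunits encoded by mitochondrial DNA. Their nuclear genes are known targets of the nuclear respiratory factors and of ETS family factors.

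The promoter windows of the members were read for letters of these factors and of forkhead factors, in the 250 bases before each RefSeq start on GRCh38.p14. Windows were given for 65 of the 77 genes. The NRF1 letters GCATGCGC or GCGCATGC, the same word on either strand, stood in 12 of the 65 genes (18.5%) and in 3.22% of all 27305 genes with a window. The ETS letters CCGGAAGT or ACTTCCGG stood in 11 (16.9%) and in 4.13% of all genes. The FOXA letters TGTTTAC or TATTTAC, or their reverse complements GTAAACA or GTAAATA, stood in 4 of the 65 (6.15%) and in 6.43% of all genes. The genes with FOXA letters were NDUFS4, UQCRC2, COX7A2L and ATP5MC2, the last 2 at alternative starts. NDUFS1 had ETS letters at 1 start only, and its window at chr2:206159210-206159459 held none of the letters searched. Windows of 4 genes are shown with the matched letters in capitals: COX5B, the only member with a probe set past the test, at chr2:97645812-97646061 (plus strand, NRF1 then ETS letters); NDUFS1, the complex I gene with the smallest p, at chr2:206159445-206159694 (minus strand, ETS letters); and the 2 genes with FOXA letters whose groups did not overlap, NDUFS4 at chr5:53560389-53560638 (plus strand) and UQCRC2 at chr16:21953111-21953360 (plus strand).
COX5B: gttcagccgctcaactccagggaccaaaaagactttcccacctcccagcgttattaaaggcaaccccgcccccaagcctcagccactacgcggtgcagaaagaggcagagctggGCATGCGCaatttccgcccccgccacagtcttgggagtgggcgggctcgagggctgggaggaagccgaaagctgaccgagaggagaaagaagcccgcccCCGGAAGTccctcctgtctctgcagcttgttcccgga
NDUFS1: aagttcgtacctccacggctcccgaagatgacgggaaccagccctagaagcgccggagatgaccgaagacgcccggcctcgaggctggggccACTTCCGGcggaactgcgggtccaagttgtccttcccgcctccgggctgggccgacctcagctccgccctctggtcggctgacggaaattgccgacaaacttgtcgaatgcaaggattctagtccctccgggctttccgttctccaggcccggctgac
NDUFS4: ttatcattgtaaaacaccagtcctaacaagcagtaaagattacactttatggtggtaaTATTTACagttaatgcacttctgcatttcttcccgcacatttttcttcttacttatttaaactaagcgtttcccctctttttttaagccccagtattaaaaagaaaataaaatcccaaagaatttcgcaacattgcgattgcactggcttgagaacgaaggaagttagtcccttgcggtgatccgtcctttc
UQCRC2: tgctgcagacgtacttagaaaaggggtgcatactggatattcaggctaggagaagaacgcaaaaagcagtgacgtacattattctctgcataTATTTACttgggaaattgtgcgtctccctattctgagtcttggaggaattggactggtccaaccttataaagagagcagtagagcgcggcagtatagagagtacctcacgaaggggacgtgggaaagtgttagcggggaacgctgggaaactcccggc

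Over the 5 complexes 1 probe set passed the test. COX5B was lower without overlap at 2 of its 4 probe sets. At 1 of these it passed limma over all 54613 probe sets (adjusted p under 0.05). This was the only 1 of 151 member probe sets to pass, beside 0.0586% of all probe sets called, or 0.0201% called lower. At the brightest probe set no member gene of 77 passed, beside 0.0961% of all 19775 genes. At an unadjusted p under 0.05 there were 8 members higher in FOXA1 transfected cells and 7 lower, against 9.18% and 5.53% of all genes. With signals over 500 there were 7 higher and 7 lower of 68 members, beside 314 and 315 of 2623 genes. The 3 and 3 arrays did not overlap in 10 members that were higher and 9 that were lower, beside 12.5% and 7.26% of all genes. Most members, 68 of 77, had a brightest signal over 500, and of these there were 9 higher and 9 lower without overlap, where the shares over the 2623 genes of that signal range were 14.1% and 14.9%. These counts of members lay near those of all genes of like signal. In a culture, less RNA per cell and fewer cells with the RNA cannot be told apart.

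The median log2 difference over the 77 members was 0.01, with 44 genes above 0 and 33 below, and it was -0.03 after quantile normalization and -0.17 with each array centred on its median. Over all genes the median was 0.07, with 59.2% above 0, and over the genes with signals over 500 it was 0.00, with 50.1% above 0. Centring on the array medians moved the median of all genes to -0.11, so that a member's sign depends on the scaling where its difference is small.

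**Figure D1:**
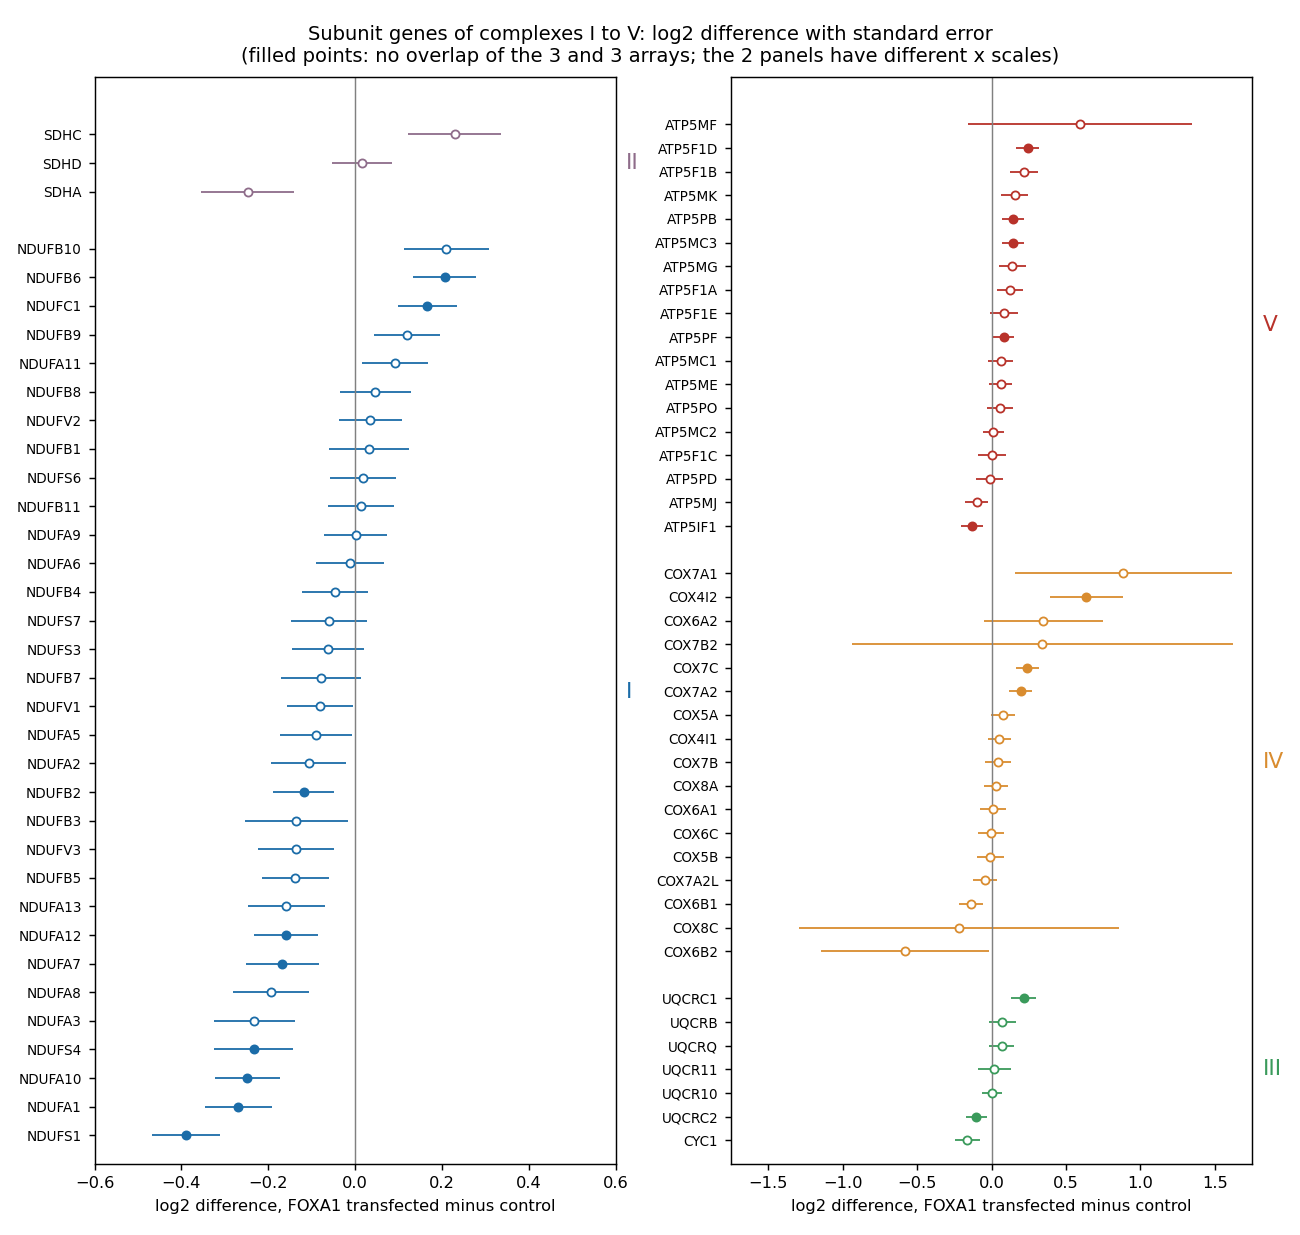
Log2 difference (FOXA1 transfected minus control, x axis, with standard error) of the 77 subunit genes at the brightest probe set, grouped by complex, with filled points where the 3 and 3 arrays did not overlap. Complex I has 21 of 32 genes below 0 and complex V has 15 of 18 above 0, and the wide bars in complex IV are tissue isoforms with low signals.

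COX5B encodes a nuclear subunit on the matrix side of cytochrome c oxidase. At probe set 211025_x_at its signals were 837.4, 914.5 and 729.1 in FOXA1 transfected arrays and 1249.3, 1274.1 and 1313.4 in control arrays. All FOXA1 transfected arrays lay below all control arrays, and the log2 difference was -0.63 (SE 0.09, limma adjusted p = 0.0401; exact permutation test, p = 0.1). At 202343_x_at the signals were 968.6, 1021.5 and 937.3 against 1293.5, 1366.4 and 1388.5. The groups did not overlap here either, with a log2 difference of -0.47 (SE 0.07, limma adjusted p = 0.0629). The brightest COX5B probe set, 213735_s_at, had signals of 1891.2, 2215.7 and 1817.0 against 1867.1, 2023.9 and 2044.5. These overlapped, with a log2 difference of -0.01 (SE 0.09, limma adjusted p = 0.987). The dimmest, 213736_at, had signals of 29.1, 32.8 and 37.7 against 38.7, 33.2 and 27.4, again with overlap and a log2 difference of 0.01.

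Both COX5B probe sets that were lower have names ending in _x_at, by which the array's maker marks probes that can also bind other transcripts. The name of the brightest ends in _s_at. Which transcripts any of the COX5B probe sets bind was not tested. The call at 211025_x_at was lost with limma without the intensity trend (adjusted p = 0.503), with each array centred on its median (0.331), with signals under 1 or under 3.5 raised to that value (0.178 and 0.147), and without any 1 array other than FOXA1 transfected array 3 (limma adjusted p from 0.0808 to 0.217). It held after quantile normalization (limma adjusted p = 0.0442), and with dim probe sets left out both _x_at probe sets passed (0.0157 and 0.0266).

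**Figure D2:**
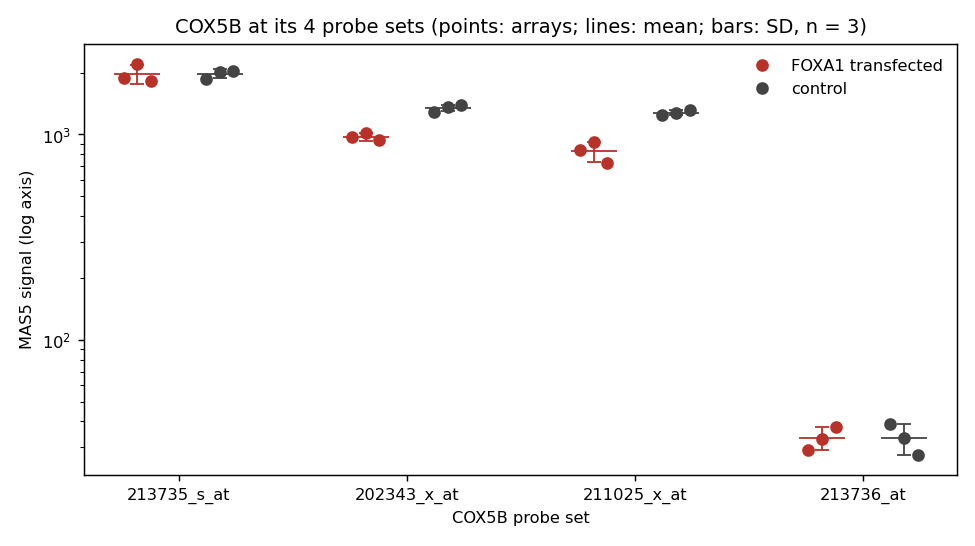
MAS5 signal (y axis, log scale) of COX5B at each of its 4 probe sets in 3 FOXA1 transfected and 3 control arrays; points are arrays, lines are means and bars are SD (n = 3). The groups are apart at the _x_at probe sets 202343_x_at and 211025_x_at and overlap at the other 2.

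Complex I oxidises NADH, and here its 32 genes tended to lie below control. The log2 difference was below 0 in 21 and above 0 in 11, with a median of -0.08, which was -0.05 after quantile normalization and -0.26 with each array centred on its median. Its array medians were -0.09, 0.02 and -0.13 in FOXA1 transfected and -0.07, 0.03 and 0.04 in control arrays, so that the groups overlapped. At signals of 500 to 1000, 11.1% of complex I genes lay above 0, beside 43.0% of all genes. At 1000 to 2000 the shares were 41.7% and 45.0%, and at 2000 to 4000 they were 55.6% and 66.9%. Without overlap there were 7 genes lower, NDUFA1, NDUFA7, NDUFA10, NDUFA12, NDUFB2, NDUFS1 and NDUFS4, and 2 higher, NDUFB6 and NDUFC1, which is 21.9% and 6.25% of the 32 beside 7.26% lower and 12.5% higher over all genes. With signals over 500 the shares were 23.3% and 6.67% of 30 complex I genes beside 14.9% and 14.1%. None passed limma over all probe sets, and at an unadjusted p under 0.05 there were 6 lower and 2 higher, against 5.53% and 9.18% of all genes. With signals over 500 there were 6 lower and 2 higher of 30 complex I genes, beside 315 lower and 314 higher of 2623 genes. Among the 5 core subunits read here, most of which carry the flavin or iron-sulfur centres, 4 lay below 0 (median -0.06), and of 27 accessory subunits 17 did (median -0.09).

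NDUFS1 is the largest core subunit and holds several iron-sulfur clusters. Its signals were 607.2, 628.2 and 630.8 in FOXA1 transfected arrays and 799.8, 877.7 and 771.7 in control arrays at the brightest probe set. The groups did not overlap (log2 difference -0.39, SE 0.08, limma adjusted p = 0.111), the smallest p of any member at its brightest probe set. At its 3 other probe sets with signals over 14 the groups overlapped, with log2 differences of 0.10, -0.18 and 0.14 at mean signals of 166, 73 and 18. NDUFA1, a small membrane subunit needed to build the complex, had 2292.2, 2270.5 and 2065.3 against 2510.5, 2730.5 and 2746.3. The FOXA1 transfected arrays again lay below (log2 difference -0.27, SE 0.08, limma adjusted p = 0.228). NDUFA10, an accessory subunit on the matrix side of the membrane arm, had 677.5, 693.3 and 665.2 against 758.5, 827.9 and 833.7 (log2 difference -0.25, limma adjusted p = 0.254). Its 3 other probe sets over 14 differed by 0.25 to 0.46 in the other direction, with overlap. These were dim, with mean signals of 16.5 to 17.6 and SE of 0.33 to 0.73.

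NDUFS4, an accessory subunit of the electron input module and a known Leigh syndrome gene, had signals of 1082.7, 1199.6 and 1028.0 in FOXA1 transfected and 1221.5, 1442.6 and 1231.0 in control arrays. These did not overlap (log2 difference -0.23, SE 0.09, limma adjusted p = 0.364). NDUFA3, a membrane arm subunit, differed by -0.23 and NDUFA8, a subunit of the intermembrane space side, by -0.19, each with overlap. NDUFA12, NDUFA7 and NDUFB2 differed by -0.16, -0.17 and -0.12 without overlap. In the other direction NDUFB6, a subunit of the far membrane arm, had 2311.1, 2565.6 and 2429.3 against 2075.7, 2152.2 and 2100.2 (log2 difference 0.21, limma adjusted p = 0.307). All its FOXA1 transfected arrays lay above the control arrays. NDUFC1 was higher without overlap at both of its probe sets, by 0.17 and 0.40 (limma adjusted p = 0.392 and 0.502).

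Complex II has no mitochondrially encoded subunit and also serves in the citric acid cycle, and the 3 of its genes read here went separate ways, with 1 subunit not analysed here. SDHA, the flavoprotein that binds succinate, had signals of 591.1, 535.0 and 454.3 in FOXA1 transfected and 616.7, 679.2 and 573.4 in control arrays. These overlapped by a single pair of arrays (log2 difference -0.25, SE 0.11, limma adjusted p = 0.416). SDHC, a membrane anchor of the heme, had 988.3, 993.5 and 1283.0 against 995.0, 897.2 and 876.0 at its brightest probe set, where FOXA1 transfected array 3 stood apart (log2 difference 0.23, limma adjusted p = 0.455). Its 7 probe sets ran from -0.49 to 0.34, with 210131_x_at higher and 238191_at lower without overlap, and the difference of the median over its probe sets was -0.13. SDHD, the other anchor, differed by 0.02 with overlap.

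Complex III passes electrons to cytochrome c, and 5 of its 7 genes lay above 0, with a median of 0.02 that turned to -0.04 after quantile normalization and -0.16 with arrays centred on their medians. UQCRC1, a core protein of the matrix side, had signals of 658.0, 650.1 and 667.2 in FOXA1 transfected and 510.0, 585.4 and 609.8 in control arrays. Its groups did not overlap (log2 difference 0.22, SE 0.09, limma adjusted p = 0.371). UQCRC2, its partner core protein, was lower without overlap (log2 difference -0.10, limma adjusted p = 0.621). CYC1, cytochrome c1, differed by -0.16 with overlap (limma adjusted p = 0.493). The small subunits UQCRQ and UQCRB differed by 0.07 each with overlap, and both turned below 0 under the 2 other scalings.

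Complex IV has a core encoded by mitochondrial DNA and nuclear subunits around it, several of which exist as widely expressed and tissue-specific isoforms. Of its 17 genes 11 lay above 0, with a median of 0.04 (-0.02 after quantile normalization and -0.14 with arrays centred on their medians). COX7C, a small membrane subunit, had signals of 6806.0, 7098.9 and 6140.7 in FOXA1 transfected and 5496.0, 5807.9 and 5625.5 in control arrays at the brightest probe set, an _x_at one. The groups did not overlap there (log2 difference 0.24, SE 0.08, limma adjusted p = 0.281) and overlapped at the other 2 probe sets, which differed by 0.12 and -0.04. COX7A2, the widely expressed form of subunit VIIa, had 5312.1, 5120.5 and 4684.9 against 4342.0, 4630.7 and 4217.9 (log2 difference 0.20, limma adjusted p = 0.377). The lowest FOXA1 transfected array lay just above the highest control array. COX6B1 differed by -0.14 with overlap (limma adjusted p = 0.572).

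The isoforms of cytochrome c oxidase were set beside their partners. COX4I2, the form of subunit IV known from lung, had 38.9, 33.1 and 31.6 in FOXA1 transfected arrays against 27.2, 19.6 and 20.3. These did not overlap, with a log2 difference of 0.64 (SE 0.24, limma adjusted p = 0.354), and its widely expressed partner COX4I1 differed by 0.05 with overlap. The muscle form COX6A2 differed by 0.35 and COX6A1 by 0.01, and the testis form COX6B2 by -0.58, all with overlap. COX7A1, the muscle form of subunit VIIa, had signals of 0.6 to 2.1, COX7B2 differed by 0.34 and COX8C by -0.22. With COX7A1, COX7B2 and COX8C at or under 14, these are readings near the bottom of the scale in which no difference was detectable. COX4I2, COX6A2 and COX6B2 were also dim, with mean signals of 28.45, 20.3 and 14.7, beside 3683 for COX4I1. COX7B and COX8A, the widely expressed partners, differed by 0.04 and 0.03.

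Complex V makes ATP, and its genes tended to lie above control as the values were deposited. Of 18 genes 15 lay above 0, with a median of 0.08, which was -0.01 after quantile normalization and -0.10 with arrays centred on their medians. Without overlap there were 4 higher, ATP5F1D, ATP5MC3, ATP5PB and ATP5PF, and 1 lower, ATP5IF1, which is 22.2% and 5.56% of the 18 beside 12.5% and 7.26% over all genes. With signals over 500 the shares were 23.5% and 5.88% of 17 complex V genes beside 14.1% and 14.9%. None passed limma, and 2 were higher and none lower at an unadjusted p under 0.05, against 9.18% and 5.53% of all genes. With signals over 500 there were 2 higher of 17 complex V genes and none lower, beside 314 higher and 315 lower of 2623 genes. All 5 genes of the catalytic F1 part lay above 0 (median 0.12), and of the 13 others 10 did (median 0.06).

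ATP5F1D, the delta subunit of the central stalk, had signals of 563.1, 558.7 and 554.0 in FOXA1 transfected and 471.0, 452.1 and 493.2 in control arrays. The groups did not overlap (log2 difference 0.24, SE 0.08, limma adjusted p = 0.263), nor at its second probe set (0.37, limma adjusted p = 0.246). ATP5F1B, the catalytic beta subunit, had 3733.7, 3910.7 and 3027.8 against 2960.2, 3089.6 and 3066.3. FOXA1 transfected array 3 lay among the control arrays (log2 difference 0.22, SE 0.10, limma adjusted p = 0.424). ATP5MC3, one of the genes for the proton-carrying c ring, had 3919.6, 4151.4 and 3780.4 against 3606.2, 3451.0 and 3674.0. All 3 of its probe sets were higher without overlap, by 0.14, 0.18 and 0.38 (limma adjusted p = 0.499, 0.382 and 0.257). ATP5PB and ATP5PF, parts of the outer stalk, were higher by 0.15 and 0.08 without overlap. ATP5IF1, the inhibitor that stops the enzyme from running backwards, had 1092.3, 1170.9 and 1170.3 against 1273.4, 1269.2 and 1213.0. These lay below control without overlap (log2 difference -0.13, limma adjusted p = 0.537), while its other 2 probe sets differed by 0.21 and 0.28 with overlap.

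Complex I and complex V were compared within each array, as the median log2 signal of each complex relative to the mean of the control arrays. The complex I median minus the complex V median was -0.16, -0.17 and -0.11 in the 3 FOXA1 transfected arrays and -0.04, 0.01 and 0.03 in the 3 control arrays. The groups did not overlap, nor did they for complex I against complex III or complex IV, 3 of the 10 pairs of complexes. This comparison is not moved by centring, which shifts all genes of an array together. After quantile normalization, which also changes the shape of the distribution, the complex I to V values were -0.06, -0.02 and -0.06 against -0.04, 0.00 and 0.04 and overlapped. The difference between the group means of the complex I to III value went from -0.10 to -0.03, with the nearest arrays of the groups at -0.0024 and 0.00054. For complex I to IV it went from -0.11 to -0.05, with nearest arrays at -0.026 and -0.011, without overlap.

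**Figure D3:**
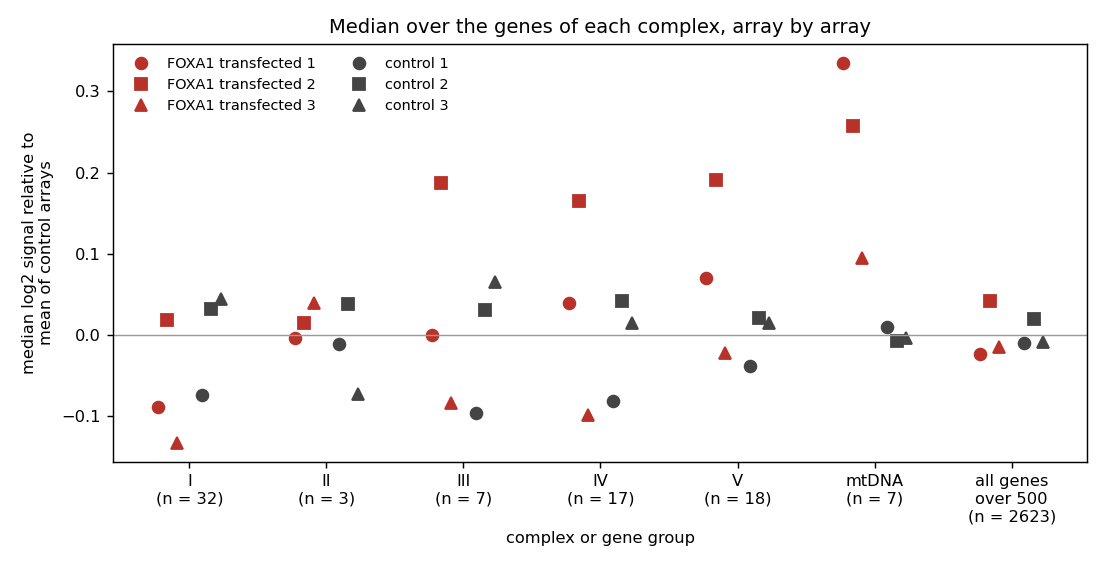
Median log2 signal over the genes of each complex, of the mitochondrially encoded subunits and of all genes with signals over 500 (x axis), relative to the mean of the control arrays (y axis), 1 point per array. FOXA1 transfected array 2 is the highest and array 3 the lowest of its group in complexes I, III, IV and V, and the spread between these arrays exceeds the difference between the group means.

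Single arrays moved many members together. FOXA1 transfected array 2 held the highest signal in 33 of the 77 members, FOXA1 transfected array 3 the lowest in 31, and control array 1 the lowest in 21. Over complex V the array medians were 0.07, 0.19 and -0.02 in FOXA1 transfected and -0.04, 0.02 and 0.01 in control arrays, so that the groups overlapped. With 1 array left out, groups without overlap were more frequent over all genes, at 15.9% to 23.4% higher and 10.3% to 12.1% lower, so members with signals over 500 are given beside all genes of that range. Without FOXA1 transfected array 3, 19 of 68 members (27.9%) were higher without overlap, beside 21.7% of all genes. Without FOXA1 transfected array 2, 19 (27.9%) were lower, beside 23.2%, and without control array 1, 17 (25.0%) were lower, beside 18.3%. In every other count with 1 array left out, the members' share lay below that of all genes in the range. Without control array 3, for example, 16.2% of members were lower, beside 24.6%. Over all 77 members, 20 were higher without FOXA1 transfected array 3, and 19 or 18 were lower without FOXA1 transfected array 2 or control array 1.

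The difference also moved with the signal. Over all genes the median log2 difference was -0.03 at signals of 500 to 1000, -0.01 at 1000 to 2000, 0.05 at 2000 to 4000 and 0.20 above 4000, where 94.6% of 166 genes lay above 0. The 10 members above 4000 had a median of 0.13, among them 5 of complex V (0.14) and none of complex I. The 9 complex I genes at 500 to 1000 had a median of -0.14, and its 12 at 1000 to 2000 had -0.05. At 2000 to 4000, the range in which both complexes had 9 genes, the median was 0.03 in complex I and 0.06 in complex V. The part of this relation in the difference between complexes was not tested.

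**Figure D4:**
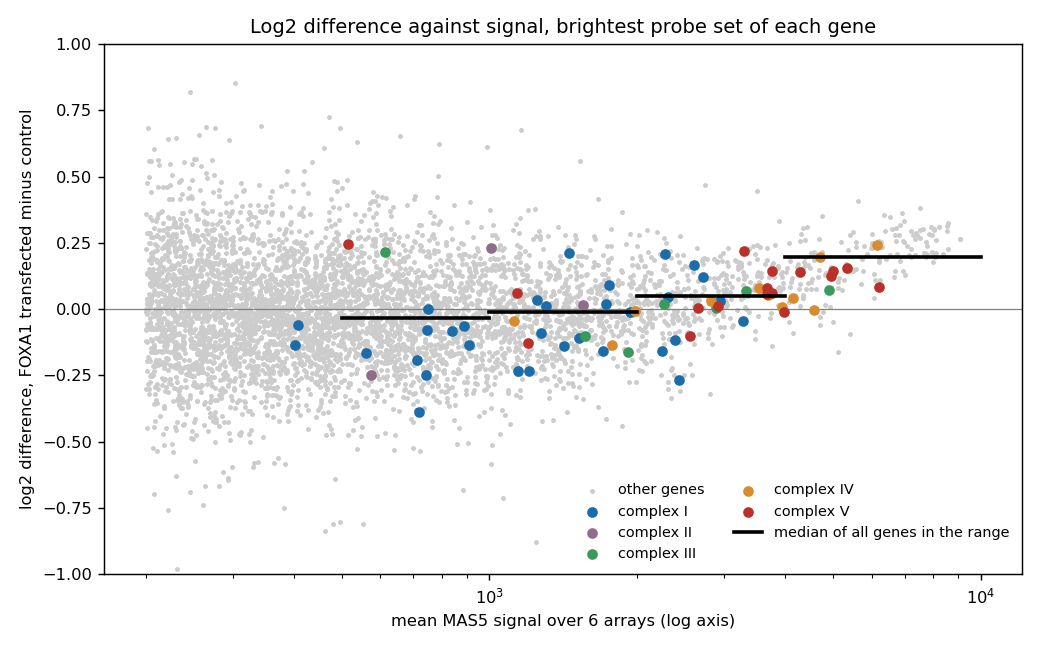
Log2 difference (FOXA1 transfected minus control, y axis) against the mean MAS5 signal over the 6 arrays (x axis, log scale), with subunit genes coloured by complex, other genes in grey and black lines at the median of all genes in each of 4 signal ranges. The median of all genes goes from -0.03 at 500 to 1000 to 0.20 above 4000, where 9 of 10 members lie above 0.

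Probe sets of the same gene did not always point the same way. Of 35 members with more than 1 probe set over a signal of 14, 23 had log2 differences of both signs, and the median spread between the probe sets of a gene was 0.29. Some of these differences lay near 0, such as -0.011 and 0.095 for NDUFA6. Shares over all genes with several probe sets are not given here, so the counts in this paragraph cannot be called particular to the members. Some of the probe sets compared were dim, where differences have wide errors. For NDUFB2 one had a mean signal of 26.7 (SE 0.27) beside 2391 (SE 0.07) at the brightest. In 10 of the 23 members at least 1 probe set showed no overlap: COX4I1, COX5B, COX7C, NDUFA10, NDUFB2, NDUFB8, NDUFB10, NDUFS1, SDHC and ATP5IF1. NDUFB10, a subunit of the far membrane arm, had 1581.3, 1649.1 and 1443.6 against 1181.1, 1358.9 and 1516.1 at its brightest probe set, with overlap and a log2 difference of 0.21. At its _x_at probe set the signals were 306.7, 341.3 and 229.7 against 378.5, 379.1 and 434.8, lower without overlap (log2 difference -0.46, limma adjusted p = 0.241). COX4I1 and NDUFB8 had overlap at the brightest probe set and none at another, by 0.11 and -0.09. Probe sets named _x_at numbered 20 in 12 members and were the brightest in 6.

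**Figure D5:**
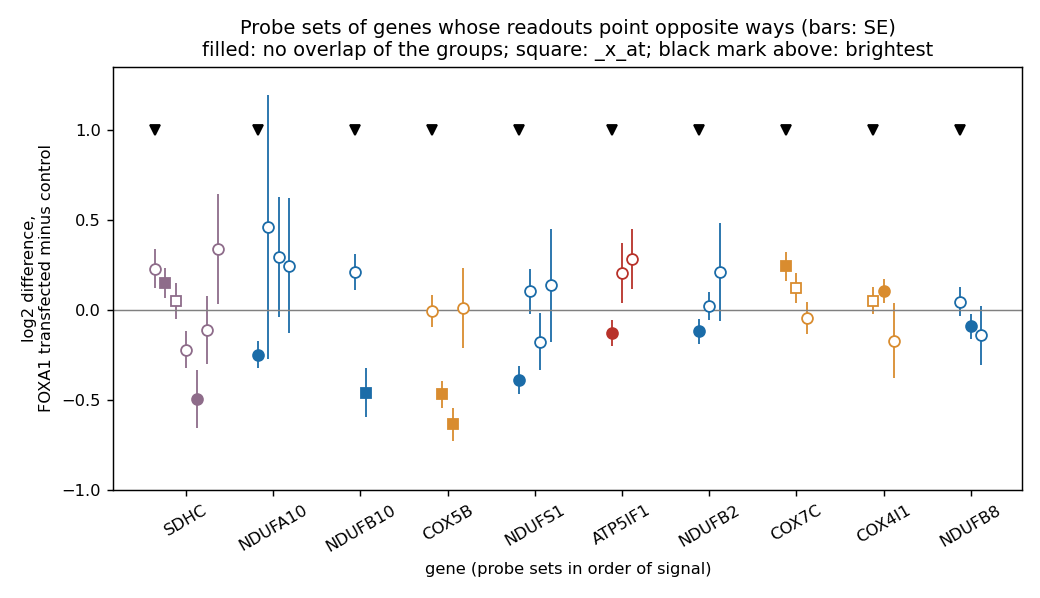
Log2 difference (y axis, with standard error) of each probe set over a signal of 14 in the 10 members whose probe sets had both signs and at least 1 without overlap; squares are _x_at probe sets, filled symbols have no overlap and a black mark stands over the brightest. SDHC spans -0.49 to 0.34 and NDUFB10 spans -0.46 to 0.21.

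Genes that work with the members were read the same way. Of the subunits encoded by mitochondrial DNA, 7 were measured, and 6 lay above 0 with a median of 0.22. ATP6, the proton channel subunit of the ATP synthase, had signals of 7252.3, 7136.8 and 6981.7 in FOXA1 transfected and 5823.2, 5348.2 and 5561.0 in control arrays. These did not overlap (log2 difference 0.35, SE 0.07, limma adjusted p = 0.111). COX2 (subunit II of cytochrome c oxidase) had 9540.6, 9471.0 and 7679.1 against 6926.6, 7153.3 and 7509.7 (log2 difference 0.30, limma adjusted p = 0.268), and ND4 was also higher without overlap, by 0.22. No gene of the 7 passed limma (3 were higher at an unadjusted p under 0.05, beside 9.18% of all genes), and 4 of them (ATP6, COX1, COX2 and ND4) had signals above 4000, the range in which 94.6% of genes lay above 0.

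None of the other partner genes passed limma either, with an unadjusted p under 0.05, higher and lower, in 6 and 5 of the assembly factors, 1 and 2 of the carrier genes, 1 and 2 of the citric acid cycle enzymes and 2 and 1 of the regulators, beside 9.18% and 5.53% of all genes. Of 50 assembly factors 27 lay above 0 (median 0.01), and the smallest p values were at COX10, which makes heme for complex IV, with 159.4, 171.0 and 139.2 against 93.1, 118.0 and 97.9 (log2 difference 0.61, limma adjusted p = 0.130), and at UQCC1, a complex III assembly factor (0.57, limma adjusted p = 0.169). Of 16 genes for ubiquinone synthesis, cytochrome c, the electron transfer flavoprotein and the adenine nucleotide and phosphate carriers 10 lay below 0 (median -0.06). COQ5, a methyltransferase of ubiquinone synthesis, had 332.2, 316.8 and 284.8 against 362.9, 464.1 and 413.9 (log2 difference -0.41, limma adjusted p = 0.194), and SLC25A3, the phosphate carrier, differed by 0.21 without overlap. Of 11 citric acid cycle enzymes 7 lay below 0 (median -0.07), with SUCLG2 at -0.45 (limma adjusted p = 0.155) and CS, citrate synthase, at 0.21 (limma adjusted p = 0.317), both without overlap. Of 13 regulators of mitochondrial biogenesis 10 lay above 0 (median 0.15), with TFB1M at -0.26 (limma adjusted p = 0.289) and ESRRA at 0.33 (limma adjusted p = 0.358), both without overlap.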

How the data were processed

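Per the labels and the study's methods, RNA was extracted with a mirVana kit, biotin-labelled and hybridised to HG-U133 Plus 2.0 arrays. The authors deposited MAS5 intensities, 1 linear signal per probe set and array, with the same trimmed mean on every array (100.01 without the highest and lowest 2%). Their further steps, RMA conversion and SAM, are no part of these intensities. The number of arrays, 3 a group, limits the precision.

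Groups came from the sample labels. Without 62 array controls, 54613 probe sets were tested. The 25 signals of 0 were set to 0.1 before log2. The groups were fitted in R 4.3.3 with limma 3.58.1 (lmFit, eBayes with trend), and two-sided p-values were adjusted by Benjamini and Hochberg's method over all of these probe sets (threshold 0.05). Single values were also given the exact permutation test. Gene symbols came from the platform annotation (41091 probe sets with 1 symbol, 1801 with several, 11721 with none), and all 79 matched symbols are in RefSeq under the same Entrez number. Promoter windows are from RefSeq. Scripts were tested on simulated data.

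Members and lists were chosen with earlier results of these data known. Genes were named by a rule: members with a probe set past the threshold, up to 5 per complex by smallest p, the SDH genes read here (SDHA, SDHC and SDHD), complex IV isoforms with their partners, members with probe sets of both signs and 1 without overlap, ATP5IF1, FOXA1, and 2 partner genes per list. Other members without overlap, NDUFA3, NDUFA8 and ND4 were named after their values were seen. Alternatives changed the trend, the scaling (quantile, median centring), the floor on low signals, the probe sets used (without dim ones up to a mean signal of 14.5, without _x_at ones, or their median per gene), the pairing (replicate block) and the arrays (1 left out at a time). Genes over a signal of 500, and complexes compared after quantile normalization, were added after the data were seen.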

Additional observations from a re-analysis of the deposited data

How the results depend on the processing

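Arrays were few and the COX5B call rests on most of them. The number of member probe sets called was 0 under limma without the intensity trend, with arrays centred on their medians, with signals under 1 set to 1 or under 3.5 set to 3.5, and with _x_at probe sets left out, which removes the called one. It was 2 with dim probe sets left out, and 0 to 1 with 1 array left out. At COX5B 211025_x_at the log2 difference was -0.63 without the trend and under both floors, -0.82 with arrays centred on their medians, and between -0.71 and -0.55 with 1 array left out. By the median over a gene's probe sets 1 gene was called lower, COX5B. With its 4 probe sets this median is the mean of the 2 _x_at ones, which lie between the others in signal. It is therefore no reading apart from those 2, and its brightest and dimmest probe sets do not enter it. Calls over all probe sets, 32 as reported, ran from 1 without the trend to 174 with dim probe sets left out. Members higher without overlap numbered 6 after quantile normalization (13 lower) and 2 with arrays centred on their medians (7 lower). Members lower without overlap numbered 3 by the median over probe sets. Shares over all genes are not given here for these settings, so these counts cannot be called particular to the members. With 1 array left out, 11 to 20 members were higher and 9 to 19 lower without overlap. The shares over all genes were then 15.9% to 23.4% higher and 10.3% to 12.1% lower. The median log2 difference over members was -0.17 with arrays centred on their medians. Complex medians also moved with the processing. Among them, complex V was at -0.01 after quantile normalization, and all 5 complexes were at -0.26 to -0.10 with arrays centred on their medians. Complex II was at 0.12 without _x_at probe sets and at -0.13 by the median over probe sets. Between the FOXA1 transfected arrays as deposited, the complex V median ran from -0.02 to 0.19. The causes were not tested, except that centring shifts every gene of an array alike and that fewer arrays or probe sets were tested where some were left out.

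Of the other named genes and probe sets, none of which passed, some differences changed sign, not only those near 0 or at low signals. Among them were NDUFA10, COX7C, SDHC and NDUFB10. Their differences at the brightest probe set were -0.25, 0.24, 0.23 and 0.21, at mean signals of 743, 6162.5, 1005.5 and 1455. After quantile normalization the differences that changed sign were -0.068 for COX5B 213736_at, -0.048 for COX4I1, -0.090 for COX6A1, -0.069 for COX7B, -0.017 for COX8A, -0.055 for UQCRB and -0.025 for UQCRQ. With arrays centred on their medians they were -0.17 for COX5B 213736_at, -0.040 for ATP5MC3, -0.037 for ATP5PB, -0.13 for COX4I1, -0.17 for COX6A1, -0.14 for COX7B, -0.15 for COX8A, -0.14 for NDUFB8, -0.17 for SDHD, -0.11 for UQCRB and -0.12 for UQCRQ. By the median over probe sets they were 0.12 for ATP5IF1, -0.032 for COX4I1, 0.31 for NDUFA10, -0.12 for NDUFB10, 0.021 for NDUFB2, -0.069 for NDUFB8, -0.13 for SDHC and -0.047 for UQCRB. COX8C was 0.34 and 0.11 with signals under 3.5 or under 1 raised to that value, and COX7C was -0.044 without _x_at probe sets. With 1 array left out the differences ran from -0.093 to 0.050 for COX5B 213735_s_at, -0.12 to 0.13 for COX5B 213736_at, -0.055 to 0.086 for COX6A1, -1.04 to 0.044 for COX6B2, -0.033 to 0.12 for COX7B, -1.03 to 1.42 for COX7B2, -0.027 to 0.082 for COX8A, -0.90 to 1.04 for COX8C, -0.025 to 0.10 for NDUFB8, -0.0036 to 0.036 for SDHD and -0.0041 to 0.15 for UQCRB.

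Same-numbered arrays did not deviate together over all probe sets (correlations of 0.00, 0.04 and 0.01). The median of their mean signals was 14.5, so dim probe sets weigh heavily in these correlations. The correlations cannot show whether same-numbered arrays were handled together, and the labels do not say. With the replicate block the calls over all probe sets went from 32 to 85, and 1 member probe set was called, COX5B 211025_x_at (limma adjusted p = 0.0403).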
